A study of Mus musculus with 6 samples.

Results

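Promoter accessibility was examined in 2 populations of tumour myeloid cells, and the regions described are the peaks that the authors' deposited table annotates as promoter within 1 kb of a start site. These were 19716 of 92864 distinct annotated peaks (21.2%), assigned to 14240 genes, of which 10396 had 1 such peak and 3844 had at least 2. The samples were ATAC-seq libraries, in which a transposase inserts adapters into open chromatin. The cells were sorted from brain tumours that SB28, a mouse glioma line, formed after it was placed in the brain of wild-type mice. Bone marrow derived macrophages (BMDM), which enter the tumour from the blood, were gated as F4/80+ CD11b+ CD45+ with high CD49d. Microglia (MG), the brain's own macrophages, were gated as F4/80+ CD11b+ with CD45 low and CD49d low or negative. Cells of both groups were LY6G-negative and at most low for LY6C, and all came from tumours, so neither group shows a brain without tumour. Each group had 3 libraries. Whether they stem from different mice is not in the labels, so the tests measure spread among libraries that may be technical replicates.

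A promoter is the stretch around a transcription start site where RNA polymerase II and the general transcription factors assemble. Promoters of vertebrates fall into a broad class that is rich in CpG dinucleotides, which includes most housekeeping genes and many developmental genes, and a CpG-poor class that is often used by genes of 1 cell type. CpG-rich promoters tend to stay open in many cell types, while distal enhancers carry much of what distinguishes macrophages of different origin. In macrophages the ETS factor PU.1 binds purine-rich sites at many cell-type genes, together with partners of the Runx, C/EBP and AP-1 families.

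The 8 windows printed here show the contrast in base composition on which the section on CpG content turns. They are the first 4 named promoters with a matched window in each direction, those of Itgb7, F10, Clec4e and Atp8b4, which were more accessible in BMDM, and those of Adamts1, Nova1, Cfap74 and Tgfa, which were less accessible there. Each is a RefSeq window from 250 bases before to 50 bases after the start site on build GRCm38.p6, the assembly that mm10 names, printed 5′ to 3′ with every CpG in capitals.
Itgb7: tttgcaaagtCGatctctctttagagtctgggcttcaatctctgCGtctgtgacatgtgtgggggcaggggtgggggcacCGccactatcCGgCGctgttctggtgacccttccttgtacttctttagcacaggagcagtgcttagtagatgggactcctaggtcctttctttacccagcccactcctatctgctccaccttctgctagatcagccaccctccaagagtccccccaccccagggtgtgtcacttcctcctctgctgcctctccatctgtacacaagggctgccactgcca
F10: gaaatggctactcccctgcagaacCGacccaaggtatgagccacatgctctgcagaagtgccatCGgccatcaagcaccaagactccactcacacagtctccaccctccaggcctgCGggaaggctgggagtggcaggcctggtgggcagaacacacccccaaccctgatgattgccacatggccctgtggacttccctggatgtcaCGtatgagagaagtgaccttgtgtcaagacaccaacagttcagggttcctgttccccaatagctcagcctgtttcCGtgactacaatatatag
Clec4e: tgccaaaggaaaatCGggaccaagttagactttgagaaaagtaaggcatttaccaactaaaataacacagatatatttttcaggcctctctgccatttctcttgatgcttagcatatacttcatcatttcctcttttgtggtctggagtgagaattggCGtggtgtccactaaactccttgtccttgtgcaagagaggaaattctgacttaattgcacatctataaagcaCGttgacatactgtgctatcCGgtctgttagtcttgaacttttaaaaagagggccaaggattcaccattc
Atp8b4: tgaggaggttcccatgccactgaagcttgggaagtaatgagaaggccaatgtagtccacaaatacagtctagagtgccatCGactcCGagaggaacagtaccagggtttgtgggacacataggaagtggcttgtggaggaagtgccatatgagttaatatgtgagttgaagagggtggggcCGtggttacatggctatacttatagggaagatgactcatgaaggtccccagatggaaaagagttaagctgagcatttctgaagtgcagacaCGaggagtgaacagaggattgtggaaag
Adamts1: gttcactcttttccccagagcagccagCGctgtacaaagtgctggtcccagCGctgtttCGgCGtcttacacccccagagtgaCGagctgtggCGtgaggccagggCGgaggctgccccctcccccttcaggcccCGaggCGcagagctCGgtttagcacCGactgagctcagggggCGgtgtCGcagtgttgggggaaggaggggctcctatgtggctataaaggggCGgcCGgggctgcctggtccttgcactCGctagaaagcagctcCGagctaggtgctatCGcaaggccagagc
Nova1: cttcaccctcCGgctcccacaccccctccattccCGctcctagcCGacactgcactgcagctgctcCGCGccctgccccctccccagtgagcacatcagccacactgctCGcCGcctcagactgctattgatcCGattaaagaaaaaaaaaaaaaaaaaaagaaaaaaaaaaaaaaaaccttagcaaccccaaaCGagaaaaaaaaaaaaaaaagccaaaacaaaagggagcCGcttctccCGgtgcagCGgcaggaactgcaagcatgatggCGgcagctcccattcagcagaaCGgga
Cfap74: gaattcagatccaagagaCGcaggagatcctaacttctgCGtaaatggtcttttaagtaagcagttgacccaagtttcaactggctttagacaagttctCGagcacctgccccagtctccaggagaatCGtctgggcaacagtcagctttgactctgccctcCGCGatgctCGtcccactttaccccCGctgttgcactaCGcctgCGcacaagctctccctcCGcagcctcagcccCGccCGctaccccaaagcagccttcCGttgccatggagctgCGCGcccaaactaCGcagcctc
Tgfa: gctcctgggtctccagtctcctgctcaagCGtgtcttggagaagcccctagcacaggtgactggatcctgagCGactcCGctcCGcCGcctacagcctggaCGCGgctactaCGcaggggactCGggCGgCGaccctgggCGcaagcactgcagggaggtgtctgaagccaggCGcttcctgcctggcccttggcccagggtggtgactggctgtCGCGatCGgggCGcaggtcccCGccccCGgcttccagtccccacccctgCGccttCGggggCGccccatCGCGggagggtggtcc

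The windows lie at chr15:102231886-102232185 on the minus strand for Itgb7, chr8:13037058-13037357 on the plus strand for F10, chr6:123289822-123290121 on the minus strand for Clec4e and chr2:126491504-126491803 on the minus strand for Atp8b4. Those of the promoters lower in BMDM lie at chr16:85803064-85803363 on the minus strand for Adamts1, chr12:46818718-46819017 on the minus strand for Nova1, chr4:155408940-155409239 on the plus strand for Cfap74 and chr6:86194972-86195271 on the plus strand for Tgfa. Itgb7 and F10 held 5 CpGs each, and Clec4e and Atp8b4 held 4 each. Adamts1 held 18, Nova1 14, Cfap74 17 and Tgfa 24. The observed number of CpGs, divided by the number that the C and G content of the window gives, was 0.216 in Itgb7, 0.219 in F10, 0.333 in Clec4e and 0.266 in Atp8b4. The same ratio was 0.577 in Adamts1, 0.764 in Nova1, 0.745 in Cfap74 and 0.641 in Tgfa. Adamts1 thus counts as CpG-poor at the limit of 0.6 used below.

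Promoter peaks were wide and strong. Their width ran from 193 to 4343 bp with a median of 1071 bp, against a median of 528 bp for the other peaks. A peak lay over an annotated start site in 15251 cases (77.4%), 2163 peaks lay upstream of one and 2302 downstream. Just inside the 1 kb limit, at 900 to 1000 bp from a start, 481 peaks had a median mean normalized count of 51.3, and just outside it, at 1001 to 1100 bp, 510 peaks had 49.9. A normalized count is a number of reads scaled by the authors' size factors. The median tested promoter had a mean normalized count of 217, against 39.8 for the other peaks. Per kilobase of peak the medians were 208 and 74.9. The highest levels were at Pisd-ps3, a pseudogene on an unplaced contig with 13199.5, 9557 and 7491 normalized counts in BMDM and 11574, 13236 and 12752 in MG, and at Mnt, which encodes a partner of the MYC-binding protein MAX, with 7189, 4309.9 and 2808 in BMDM and 6354, 3387 and 4205 in MG. Plekhg2, the mRNA-decay factor gene Zfp36 and the transcription factor gene Sp1 followed, with group means of 4305, 4601 and 4220 in BMDM and 4837, 4005 and 3889 in MG. None of these 5 passed the test, and the groups overlapped at each.

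In every library the strongest summits gathered just upstream of the start. The summit of the list peak over a RefSeq start lay at a median of -30, -23 and -38 bp in BMDM and -20, -20 and -28 bp in MG. Between 59.3% and 65.4% of summits lay upstream in BMDM and between 57.3% and 62.4% in MG. These ranges overlapped, and the list that placed the most summits upstream came from the shallowest library, BMDM 3.

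**Figure D1:**
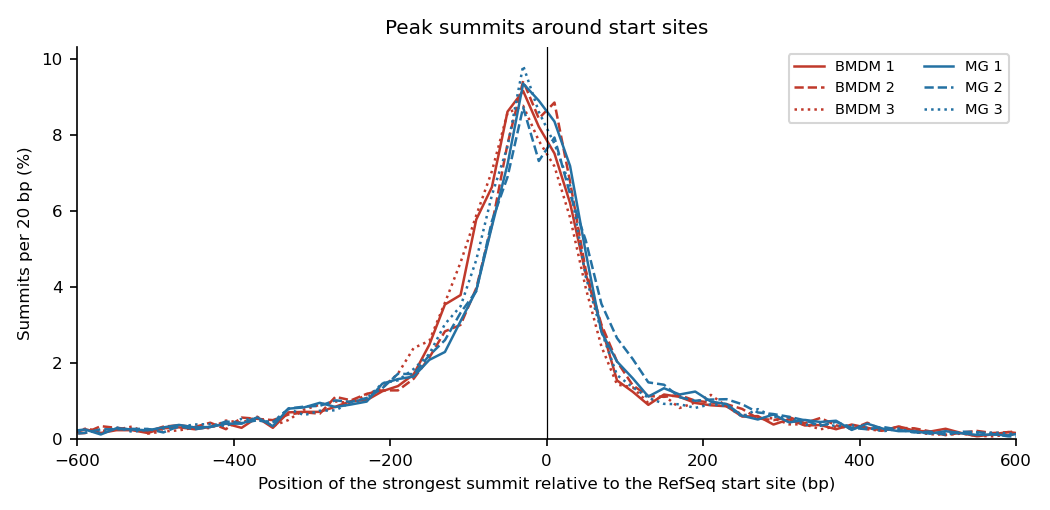
Position of the strongest summit of each promoter peak relative to the RefSeq start site, in bp, as the percentage of summits per 20 bp, with 1 line per library (BMDM red, MG blue). All 6 lines peak just upstream of the start, with medians between -20 and -38 bp.

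Reads in peaks numbered 7167211, 19727511 and 4910448 in BMDM 1, 2 and 3 and 19244734, 23601865 and 12531808 in MG 1, 2 and 3. At promoters the log2 values correlated at 0.962 to 0.972 within BMDM, 0.872 to 0.968 within MG and 0.845 to 0.935 between the groups. On the first principal component of the promoters, which held 51.3% of the variance, BMDM 1, 2 and 3 lay at 69.3, 47.7 and -6.98 and MG 1, 2 and 3 at 39.9, -98.3 and -51.6. MG 1 thus lay between BMDM 2 and BMDM 3 on that axis and stood apart from MG 2 and MG 3.

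Promoters held somewhat less of the accessible signal in BMDM than in MG, by a difference that did not pass a test over libraries. The share of reads in peaks that fell in promoters was 59.6%, 55.8% and 52.5% in BMDM 1, 2 and 3 and 63.5%, 56.4% and 60.7% in MG 1, 2 and 3. The share averaged 56.0% ± 3.53 over the 3 BMDM libraries and 60.2% ± 3.56 over the 3 MG libraries (SD), the groups overlapped, and the difference of -4.25 percentage points had p = 0.2 in a two-sided exact permutation test over libraries. The median promoter stood above the median other peak by 2.56, 2.48 and 1.90 on the log2 scale in BMDM and by 3.11, 2.65 and 2.74 in MG. This quantity averaged 2.31 ± 0.36 over BMDM and 2.83 ± 0.25 over MG libraries (SD, n = 3 per group). The groups did not overlap, and the difference of -0.52 had an exact permutation p = 0.1, the smallest that 3 against 3 libraries can give, and 0.2 after Benjamini-Hochberg adjustment over both tests. In BMDM 3, the shallowest library, the exact binomial 95% interval of the share was 52.46% to 52.55%, so counting error was small beside the spread between libraries.

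The comparison between BMDM and MG asked which promoters differed in accessibility between infiltrating and resident macrophages of the tumour. In BMDM the promoters of Itgb7, Clec4e and F10, which encode an integrin chain, a pattern recognition receptor and a coagulation factor, were among those more accessible, and those of Adamts1, Nova1, Tgfa, Neo1 and Sall1 were less accessible. Of 19378 promoters with a mean normalized count of at least 10 (98.3%), 411 were higher in BMDM and 630 were lower, by limma on log2(normalized count + 1) with Benjamini-Hochberg adjusted p under 0.05 over all 87944 tested peaks. The BMDM and MG libraries did not overlap at any of the 1041. The share called was 2.12% higher and 3.25% lower among promoters (5.37% in either direction), 5.33% and 1.54% among all tested peaks (6.87%), and 6.24% and 1.05% among the other peaks (7.29%). Calls higher in BMDM thus made up 39.5% of the calls at promoters and 85.6% at the other peaks. No other annotation class had a share of lower calls as large: 5' UTR peaks, the nearest, had 3.17% of 221 peaks, and peaks between 1 and 2 kb from a start had 5.28% higher and 1.15% lower. Without overlap between the groups, whatever the test, 1401 promoters were higher in BMDM (7.23%) and 4133 were lower (21.3%), together 28.6%, and over all tested peaks these shares were 17.0% and 12.9%, together 29.9%.

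The balance of directions rests on the scaling between libraries. The median promoter differed by -0.31 on the log2 scale (BMDM minus MG) under the authors' size factors, and the median tested peak by -0.14. Log2 differences of promoters are given from here on relative to the median promoter, while p-values test the difference without that shift. With each library centred on its median promoter, 1415 promoters were higher and 369 lower, so that 79.3% of the calls were higher. With totals of reads in peaks as the scale the counts were 717 and 686, or 51.1% higher. Of the called promoters, 411 of 411 higher and 353 of 630 lower ones kept their call under centring.

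The calls also rest on single libraries and on the variance model. No promoter passed without BMDM 1, BMDM 2 or MG 3, where 898, 840 and 846 promoters were higher and 2074, 2060 and 1607 lower at an unadjusted limma p under 0.05. Without BMDM 3 there were 184 higher and 247 lower, without MG 1 there were 931 and 2507, and without MG 2 there were 661 and 791. By limma's voom on recovered reads no promoter passed either, with a lowest adjusted p of 0.0505 and with 1252 promoters higher and 2513 lower before adjustment (p under 0.05). The adjusted p in the authors' deposited table was under 0.05 for 697 promoters higher in BMDM (3.54%) and 1605 lower (8.14%), against 9.06% and 5.38% over all its peaks. All 411 and all 630 promoters were among those called by the authors' deposited table, in the same direction. Fewer cells of a type that opens a promoter and less opening per cell cannot be told apart in such bulk libraries.

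**Figure D2:**
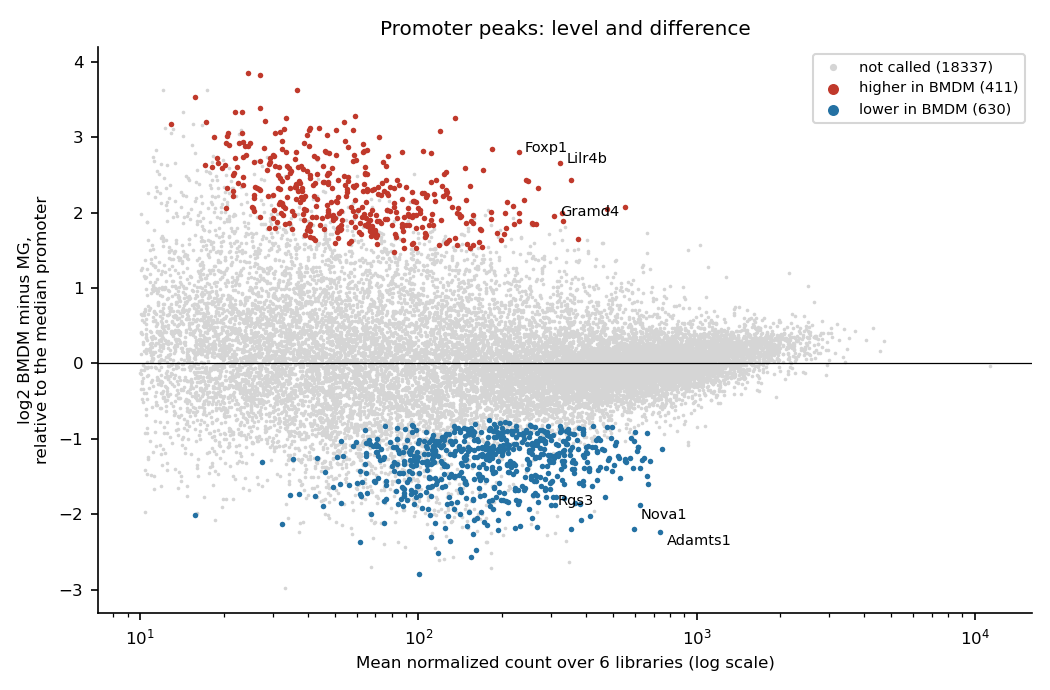
Each point is 1 of 19378 tested promoter peaks, with its mean normalized count over 6 libraries (log scale) against the log2 difference BMDM minus MG relative to the median promoter. The 411 higher calls lie at low to middle levels (median mean count 55.8) and the 630 lower calls at higher ones (median 179), and the named points are among the largest changes.

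Promoters spread less between the groups than other peaks did. The interquartile range of the log2 difference was 0.61 at promoters and 1.23 at the other peaks. The median SD between libraries at promoters was 0.45 in BMDM and 0.36 in MG, and at the other peaks it was 0.48 in each group. The relative log2 differences of called promoters ran from 1.48 to 3.86 where BMDM was higher and from -2.80 to -0.75 where it was lower, with medians of 2.20 and -1.25. Level went with direction. In the lowest quartile of promoters by mean count (10.0 to 59.0) 220 were higher and 18 lower, in the second (to 217) 171 and 375, in the third (to 570) 20 and 218, and in the highest 0 and 19.

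The 12 largest changes in each direction were taken from called promoters above the median level whose groups did not overlap. The increases in BMDM included several cell-surface and signalling genes of leukocytes. Foxp1 encodes a forkhead transcription factor, and its named peak at chr6:99434702-99435640 had 478, 460.4 and 234 normalized counts in BMDM against 43.6, 91.8 and 69.0 in MG. The relative log2 difference was 2.81 (SE 0.39, limma adjusted p = 0.026). Lilr4b, a leukocyte immunoglobulin-like receptor, had a peak 679 bp downstream of its start, at chr10:51486248-51487612, with 795, 543 and 301 in BMDM against 125, 86.4 and 89.4 in MG. Its difference was 2.66 (SE 0.39, adjusted p = 0.026), and its close copy Lilrb4a lies a few kilobases away, so reads of the pair may be split between them. At both genes every BMDM library exceeded every MG library, which the choice of these promoters required.

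Itgb7 encodes the integrin beta 7 chain, which pairs with CD49d, the antigen of the gate. Its promoter at chr15:102230658-102232132 had 363, 566 and 272 normalized counts in BMDM against 68.2, 105 and 90.4 in MG, a relative log2 difference of 2.44 (SE 0.35, adjusted p = 0.026). F10, coagulation factor X, at chr8:13036244-13037652 had 714, 681 and 342 in BMDM against 125, 127 and 123 in MG, a difference of 2.44 (SE 0.35, adjusted p = 0.026). Clec4e, the receptor Mincle that binds glycolipids of mycobacteria and products of dead cells, had 490.0, 517 and 216 in BMDM against 104, 80.9 and 78.7 in MG. That was a difference of 2.42 (SE 0.38, adjusted p = 0.026). The 3 MG libraries lay close together at these promoters, and BMDM 3 was the lowest BMDM library at each.

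The other 7 were Septin9 (a cytoskeletal GTPase), Atp8b4 (a P4-type ATPase of the phospholipid flippase family), Gpr132 (a G protein-coupled receptor of leukocytes), Pim1 (a serine/threonine kinase), Kcnn4 (a calcium-activated potassium channel), Hsh2d (an SH2 adaptor of blood cells) and Gramd4. Their relative log2 differences ran from 1.96 at Gramd4 to 2.17 at Septin9, with adjusted p of 0.0264 to 0.0324. Gpr132 was the most accessible of the 12, with 1182, 787 and 603 normalized counts in BMDM against 297, 183 and 259 in MG. Pim1 had 1018, 673 and 513 in BMDM against 303, 149 and 211 in MG, at a peak 833 bp downstream of the start. In all 7 the lowest BMDM library was above the highest MG library, again by the rule of choice.

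The 12 largest decreases included genes known from neurons, such as Nova1 and Cadm2, beside the microglial factor Sall1. Adamts1, a secreted metalloprotease that cleaves proteoglycans, had 309, 146 and 210.1 normalized counts in BMDM at chr16:85800732-85803661 against 1487, 1256 and 1039.9 in MG. The relative log2 difference was -2.24 (SE 0.35, adjusted p = 0.026). Tgfa, a ligand of the EGF receptor, had 73.4, 59.6 and 67.0 in BMDM at chr6:86194707-86195936 against 390.3, 404 and 343 in MG, a difference of -2.18 (SE 0.28, adjusted p = 0.026). Tgfa averaged 66.7 ± 6.92 over BMDM libraries and 379 ± 32.0 over MG libraries (SD, n = 3 per group), a gap many times the spread within either group.

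Nova1, a neuronal splicing regulator, had 246, 119.8 and 179 normalized counts in BMDM against 1222, 943 and 861 in MG, a relative log2 difference of -2.20 (SE 0.35, adjusted p = 0.026). Neo1, the netrin receptor neogenin, had 77.4, 73.8 and 90.6 in BMDM against 439, 479 and 441 in MG, a difference of -2.17 (SE 0.28, adjusted p = 0.026). Cfap74, a protein of cilia and flagella, had 133, 80.3 and 99.6 in BMDM against 820.3, 511 and 476 in MG, a difference of -2.19 (SE 0.34, adjusted p = 0.026). By the same rule, groups did not overlap at any of these promoters. Tcaf1, Apbb2, Cadm2, Rbfox2, Adgra3, Sall1 and Rgs3 made up the 12, with differences from -2.16 at Tcaf1 to -1.87 at Rgs3 and adjusted p of 0.026 to 0.0342. At Cadm2, a neural adhesion molecule, MG 1 had 142 normalized counts while MG 2 and MG 3 had 742 and 447, and the BMDM libraries had 63.5, 62.8 and 83.3.

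**Figure D3:**
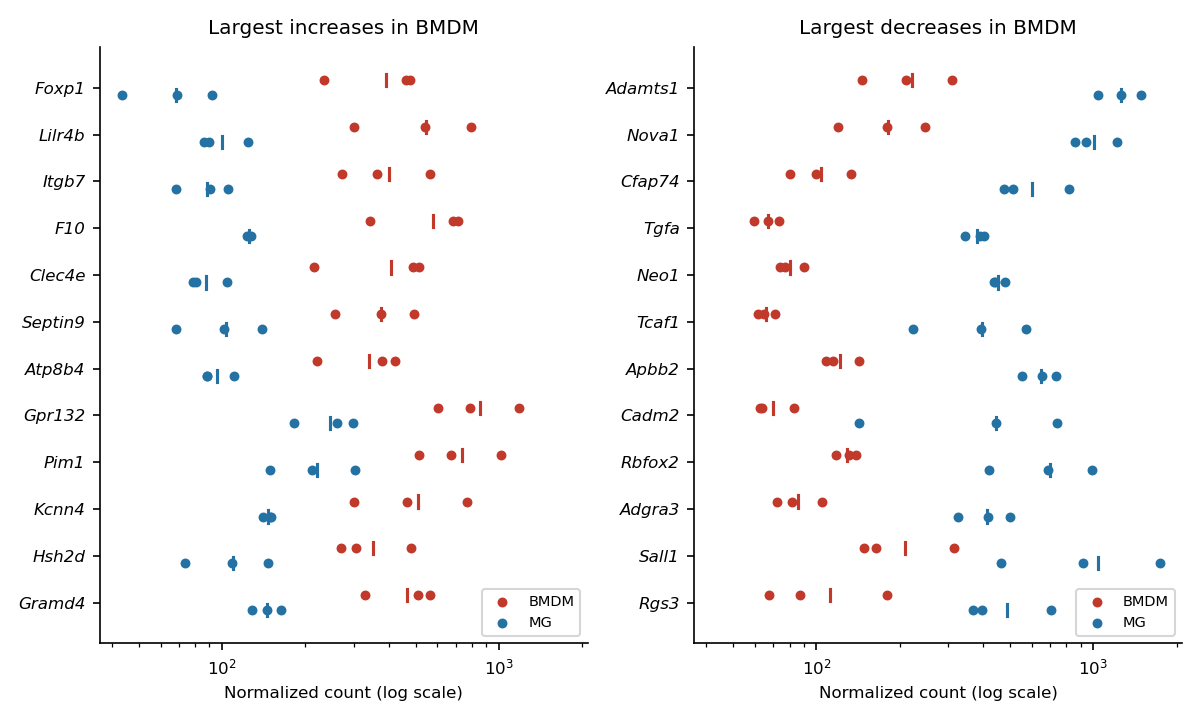
Normalized counts (log scale) of the 12 largest increases (left) and the 12 largest decreases (right) among promoters above the median level, with 3 BMDM libraries in red above 3 MG libraries in blue and a tick at each group's mean. The 24 were chosen among promoters whose groups do not overlap, and Cadm2 and Sall1 have the widest MG spread.

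The promoters that rose and those that fell differed in CpG content. A RefSeq window could be matched to 10339 promoter peaks (52.4%), of which 10268 were tested. With a ratio of observed to expected CpGs above 0.6 taken as CpG-rich, 21 of 7196 CpG-rich promoters were higher in BMDM (0.292%) and 261 were lower (3.63%). Of 3072 CpG-poor promoters, 101 were higher (3.29%) and 121 were lower (3.94%). Accordingly 17.2% of the higher promoters with a window were CpG-rich, against 68.3% of the lower ones and 70.8% of those not called. The lower promoters had a median ratio of 0.736 and the higher ones of 0.275, while promoters without a call had 0.754.

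The excess of lower over higher calls at CpG-rich promoters was present under each scaling, and that at CpG-poor promoters was not. CpG-rich promoters had 43 higher and 350 lower with library totals, 148 and 507 with cyclic loess and 96 and 168 with centring on the median promoter. CpG-poor promoters had 178 higher and 104 lower with library totals, 208 and 183 with cyclic loess and 314 and 65 with centring. CpG-rich promoters were also stronger, with a median mean count of 531 against 159 at CpG-poor ones. In the second quartile of level, where both classes were of like size, 12 of 1006 CpG-rich promoters were higher (1.19%) and 136 lower (13.5%), and 38 of 1022 CpG-poor promoters were higher (3.72%) and 88 lower (8.61%). Within that quartile increases were more frequent at CpG-poor promoters and decreases at CpG-rich ones. Over all tested promoters the order was the same for increases but not for decreases, which were 3.63% of CpG-rich and 3.94% of CpG-poor promoters, and in the highest quartile of level decreases were 0.21% and 0.70%.

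**Figure D4:**
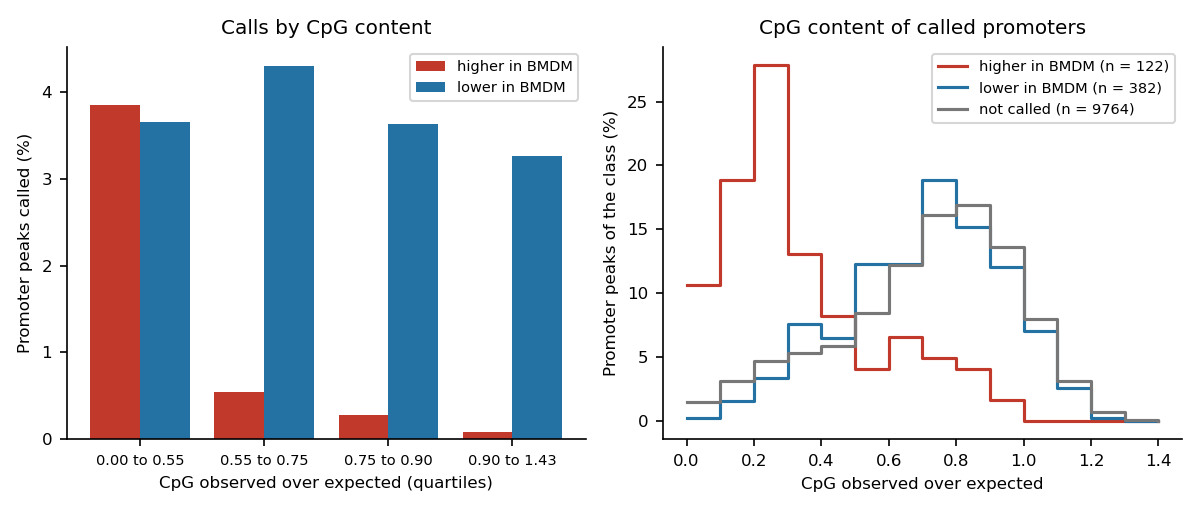
Left, the percentage of tested promoters called higher (red) or lower (blue) in BMDM in quartiles of the observed over expected CpG ratio. Right, the distribution of that ratio in 122 higher, 382 lower and 9764 uncalled promoters: higher calls drop from 3.86% in the lowest quartile to 0.0779% in the highest, while lower calls stay between 3.27% and 4.31%.

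Within libraries, the median log2 level of CpG-poor promoters minus that of CpG-rich ones was -1.86, -1.79 and -1.48 in BMDM and -2.17, -1.46 and -1.74 in MG. CpG-poor promoters took 15.7%, 16.3% and 17.1% of the reads at windowed promoters in BMDM and 14.7%, 17.4% and 15.8% in MG. The groups overlapped in both measures, so the contrast in calls was not seen in the level of each class as a whole.

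Letters bound by some macrophage factors were more frequent in the promoters that rose. The PU.1 letters GAGGAAGT, searched on both strands, were in 12.3% of 122 higher windows, 1.05% of 382 lower windows, 3.39% of all tested windows and 3.20% of all 32851 RefSeq windows. Of the printed windows, those of Itgb7 and Atp8b4 held them. The Runx letters TGTGGTT were in 12.3% of higher, 3.93% of lower, 3.76% of tested and 5.27% of all windows. The AP-1 letters TGANTCA, which read the same on both strands, were in 10.7%, 2.09%, 5.32% and 7.81% in the same order. The interferon response letters GAAA and GAAA, with any 2 bases between, were in 7.38%, 1.83%, 3.12% and 3.44%. No letters searched contain another motif searched, and a match is not a bound site.

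The letters of general promoter elements differed in direction. The GC box GGGCGG, the site of Sp1-family factors, was in 23.8% of higher, 74.3% of lower, 65.4% of tested and 35.7% of all windows. The printed windows of Adamts1, Cfap74 and Tgfa held it and no printed higher window did. The CCAAT letters were in 28.7%, 37.4%, 37.8% and 37.4%, in the same order. The TATAAA letters were in 13.1%, 8.64%, 6.60% and 13.6%, so they were more frequent in higher windows than in tested ones. Among CpG-poor promoters alone, the PU.1 letters were in 13.9% of 101 higher, 2.48% of 121 lower and 5.79% of all tested windows, so the contrast was also present within that class. The Runx letters there were in 14.9%, 4.13% and 6.51%. The AP-1 letters there were in 12.9%, 3.31% and 10.1%, the interferon response letters in 8.91%, 1.65% and 5.40% and the TATAAA letters in 13.9%, 10.7% and 9.60%, so the excess of AP-1 letters in higher over tested windows was smaller within that class. The NRF1, C/EBP, MEF2 and E-box letters (GCGCA followed by TGCGC, TTGCGCAA, CTA and TAG with any 4 bases between, and CACGTG, all of which read the same on both strands) were in 0%, 0.820%, 3.28% and 6.56% of higher windows and in 2.36%, 0%, 2.36% and 8.64% of lower ones. In all tested windows their shares were 1.93%, 0.292%, 2.85% and 10.2%. The C/EBP letters were in 1 of 122 higher windows.

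Increases in BMDM lay often at secondary peaks of a gene and decreases at its main one. Among genes with at least 2 promoter peaks, 57 of 264 higher promoters (21.6%) were the gene's strongest, against 192 of 303 lower ones (63.4%) and 42.0% of those not called. Only 57.7% of higher promoters lay over a start site, against 89.5% of lower and 78.2% of uncalled ones. In counts, 237 peaks over a start were higher (1.57%) and 564 lower (3.73%), whereas upstream peaks had 88 higher (4.28%) and 31 lower (1.51%) and downstream peaks 86 (3.93%) and 35 (1.60%). Increases were also narrow, with a median width of 593 bp against 1260 bp for decreases and 1087 bp for uncalled promoters. Level was not held constant in these comparisons, and increases lay at lower levels than decreases (median mean counts of 55.8 and 179). Of the 12 largest increases named above, 5 were not the gene's strongest promoter peak, and of the 12 largest decreases 1 was not.

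Foxp1 shows the pattern with 7 promoter peaks. The strongest, at chr6:99521036-99523715, had 573, 605 and 386 normalized counts in BMDM against 1015, 700.2 and 710.4 in MG, a relative log2 difference of -0.32 (SE 0.33, adjusted p = 0.27). The peak at chr6:99248269-99248735 had 39.7, 51.8 and 52.5 in BMDM against 6.35, 10.4 and 5.83 in MG and rose by 2.86 (SE 0.45, adjusted p = 0.026). A further one at chr6:99266025-99266505 had 37.7, 53.7 and 48.9 in BMDM against 13.5, 16.4 and 10.7 in MG and rose by 2.04. The start that is most accessible in both groups therefore did not pass, while 3 weaker ones did.

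By gene type, 377 of 17833 promoters of protein-coding genes were higher (2.11%) and 592 lower (3.32%). Of 383 promoters of long intergenic RNAs 13 were higher and 9 lower, of 251 of antisense RNAs 6 and 11, and of 203 of microRNAs 2 and 2. An antisense start often shares its open region with a coding gene, and such a pair cannot be separated here.

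Beside Foxp1, the genes with at least 3 higher promoters were Nrg1, Pola2 and Sema4d, a set chosen after the values were seen. In Sema4d, a semaphorin of leukocytes, 3 of 7 promoters rose, the most accessible of them with 117, 153 and 118 normalized counts in BMDM against 46.0, 30.6 and 58.3 in MG. Its strongest promoter peak had 561, 472 and 274 in BMDM against 631, 263 and 318 in MG and did not pass (relative log2 difference 0.47). In Pola2, a subunit of DNA polymerase alpha, the CpG-rich start had 432, 521 and 369.6 in BMDM against 574, 557.6 and 482 in MG (0.02), and 3 weaker peaks rose by 1.73 to 2.76. In Nrg1, which encodes neuregulin, all 3 higher peaks had at most 21.4 normalized counts in any MG library. The genes with at least 3 lower promoters were Cxxc5, Efr3b, Sema6a and Fscn1, the gene of the actin-bundling protein fascin, each with 3.

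Rgs3 and Ablim1 were the only genes with promoters called in both directions, of 3742 genes with at least 2 tested promoters. Rgs3, a regulator of G protein signalling, fell at chr4:62699200-62700080, where BMDM had 181, 67.3 and 87.0 normalized counts against 703, 367 and 397 in MG (relative log2 difference -1.87, adjusted p = 0.0274). It rose at chr4:62634167-62634500, where BMDM had 77.4, 82.9 and 68.8 against 19.8, 33.3 and 30.1 in MG (1.77, adjusted p = 0.038). Ablim1, an actin-binding LIM protein, rose at chr19:57118801-57119545 with 81.3, 121 and 68.8 in BMDM against 25.4, 24.1 and 29.2 in MG (2.03, adjusted p = 0.0287). It fell at chr19:57197154-57198250 with 51.6, 35.0 and 30.8 in BMDM against 119.8, 82.5 and 104 in MG (-1.07, adjusted p = 0.0417). In both genes the start with more signal in MG and the start with more signal in BMDM were different ones, far apart in the gene.

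The other peaks of a gene with a called promoter mostly differed in the same direction as the promoter. For each gene the strongest promoter was set beside the sum of its other peaks within 100 kb. Promoters are given relative to the median promoter, and the sums relative to their own median over genes, -0.11 on the log2 scale. Signs refer to these separate zeros, so the sign of a value near 0 depends on them. For 174 genes whose strongest promoter was higher, the median relative log2 difference was 2.24 at the promoter and 0.93 over the other peaks, and 86.2% had the same sign. For 429 genes with a lower one the medians were -1.24 and -0.62, with 82.3% of the same sign, against 62.0% of 10172 genes whose promoter was not called. Over 10775 genes Pearson's r was 0.418 and Spearman's rho 0.397, a description, since both sides share the 6 libraries and their depth. At Clec4e the single other peak differed by 3.43, more than the promoter, whereas at Itgb7 the other 2 summed to -0.15 and at Neo1 the other 7 to 0.38.

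The authors' deposited table also holds a second comparison per gene, whose assay its header does not name. Among 332 genes with a higher promoter, that comparison in the authors' deposited table called 92 higher (27.7%) and 5 lower. Among 468 genes with a lower promoter, the authors' deposited table called 2 higher and 70 lower (15.0%), and among 10913 genes without a called promoter it called 5.47% higher and 4.29% lower. In the authors' deposited table F10 had a gene-level log2 difference of 5.66, Clec4e of 4.71, Itgb7 of 4.01 and Adamts1 of -3.45, while Foxp1 had 0.05 and Rgs3 0.92. Thus 7 of the 11 largest increases with a gene-level value, and 4 of the 12 largest decreases, were called in the same direction by the authors' deposited table and none in the opposite one.

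Some markers of the sorted populations differed at their promoters, and so did some markers of other cells. The strongest promoter of each gene was taken for 25 lists, and over all genes 204 (1.45%) of 14097 strongest promoters were higher and 519 (3.68%) were lower, with a median of -0.03. Of 14 monocyte and macrophage genes tested, 4 rose and 0 fell, with a median relative log2 difference of 1.73. Hp, the haemoglobin-binding protein haptoglobin, had 65.5, 69.3 and 58.0 normalized counts in BMDM against 11.1, 15.3 and 11.7 in MG, a difference of 2.58 (SE 0.36, adjusted p = 0.026). Ly6c2, the antigen LY6C that both gates held low, had 33.7, 94.5 and 39.9 in BMDM against 7.14, 16.4 and 9.72 in MG (2.47, SE 0.52, adjusted p = 0.0394). Its near-identical neighbour Ly6c1 makes that count uncertain. Clec4e and F10 were the other members that rose, and Plac8 (1.93, adjusted p = 0.0527) and Itgal, the integrin CD11a (1.46, adjusted p = 0.0567), did not pass. Chil3 and Fn1 had no promoter peak among those analysed.

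Of 13 microglial genes tested, 3 fell and 0 rose, with a median of -0.54. Tmem119, a surface protein of microglia, had 105, 88.1 and 114 normalized counts in BMDM against 323, 296 and 273 in MG, a difference of -1.22 (SE 0.28, adjusted p = 0.026). Sparc, a matricellular protein, had 29.8, 20.1 and 32.6 in BMDM against 78.5, 173 and 125 in MG (-1.79, SE 0.38, adjusted p = 0.026). Sall1, the microglial identity factor, had 315, 149 and 165 in BMDM against 1739.7, 464 and 919 in MG (-1.87, SE 0.49, adjusted p = 0.0342). The groups did not overlap at any of these 3. Olfml3 (-0.88, adjusted p = 0.0579) did not pass, nor did Cx3cr1 (-0.35, adjusted p = 0.275), P2ry12 (-0.54, adjusted p = 0.296) and P2ry13 (-0.24, adjusted p = 0.402). The groups overlapped at P2ry12 and P2ry13. Csf1r differed the other way (0.67, adjusted p = 0.624), also with overlapping groups. The differences of the 13 ran from -1.87 to 0.67. Of the 5 antigens of the sort with a promoter peak, Ly6c2 rose, and Itga4, which encodes CD49d itself, had 2065, 1066 and 853 in BMDM against 524, 562 and 529.6 in MG without passing (1.51, adjusted p = 0.0821).

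Of 9 T, NK and B cell genes tested, 4 rose and 0 fell, with a median of 2.01. Cd3e, a chain of the T cell receptor complex, had 87.3, 110.1 and 47.1 normalized counts in BMDM against 8.73, 20.8 and 11.7 in MG (2.80, adjusted p = 0.0262). Cd247, the zeta chain of that complex, had 85.3, 118 and 88.8 in BMDM against 11.1, 26.8 and 18.5 in MG (2.69, adjusted p = 0.026). The B cell gene Ms4a1 and the NK receptor gene Ncr1 rose as well. The T cell kinase gene Lck had 298, 329 and 234 in BMDM against 453, 562 and 435 in MG, without overlap, and did not pass (-0.44, adjusted p = 0.146), and the B cell factor gene Pax5 had a difference of -0.12 with overlapping groups. The summed level of the list was 960 to 1572 in BMDM and 953 to 1088 in MG, and Cd4, Cd8a, Cd3g and Cd79a had no promoter peak among those analysed.

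Of 6 neutrophil genes tested, Ltf, Mmp8 and S100a8 rose, with a median of 1.69 and a summed level of 438 to 716 in BMDM and 298 to 383 in MG, while Ly6g, Elane, S100a9, Camp, Ngp and Retnlg had no promoter peak among those analysed. Of 6 dendritic cell genes only Ccr7, the lymph node homing receptor, rose, with 93.2, 159 and 138 in BMDM against 43.6, 45.9 and 48.6 in MG (1.76, adjusted p = 0.0337). The summed level of that list was 1112 to 1646 in BMDM and 1511 to 2121 in MG. Of 7 endothelial genes only Pecam1, which leukocytes also express, rose (2.38, adjusted p = 0.0275), with a summed level of 768 to 1256 in BMDM and 1198 to 1433 in MG. The part of such cells in the increases of BMDM was not tested.

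Of 11 neuronal, astrocytic and oligodendroglial genes tested, 3 fell and 0 rose, with a median of -1.21. Slc1a3, the astrocytic glutamate transporter, had 47.6, 42.1 and 59.8 normalized counts in BMDM against 155, 470.1 and 284 in MG (-2.14, adjusted p = 0.026). Sox2, a factor of neural progenitors, had 55.5, 47.9 and 79.7 in BMDM against 125, 602 and 351 in MG (-1.99, adjusted p = 0.0345), and Pdgfra fell by 1.21. Olig2 had 51.6, 48.6 and 45.3 in BMDM against 58.7, 449 and 233 in MG (-1.59, adjusted p = 0.0864), and Snap25 and Aqp4 had no promoter peak among those analysed. The summed level of the list was 982 to 1065 in BMDM and 1582, 4678 and 2833 in MG 1, 2 and 3, so MG 2 held the most of this signal and MG 1 the least within MG. The differences of the 11 ran from -2.24 to 0.75. Without MG 1, 9 of the 11 fell, in a fit that called 2507 of all 19378 tested promoters lower, against 630 with all libraries. Among the 12 largest decreases, Cadm2, Rbfox2, Tcaf1 and Adgra3 had the same order of MG libraries as this list. Neo1 differed little between them, with 439, 479 and 441 in MG 1, 2 and 3. Cadm2 had 142, 742 and 447 and Rbfox2 had 420, 988 and 687 in MG 1, 2 and 3. Nova1, Adamts1, Cfap74, Sall1 and Rgs3 were highest in MG 1, and Tgfa and Apbb2 were lowest in MG 3. The part of such cells in the decreases was not tested.

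Few promoters of metabolism and histone acylation genes passed the test. Of 25 glycolysis and lactate genes, Hk1, which encodes a hexokinase, rose with 186, 111 and 88.8 normalized counts in BMDM against 34.9, 29.0 and 38.9 in MG (2.13, SE 0.36, adjusted p = 0.0281), and Ldhb, the B chain of lactate dehydrogenase, fell with 131, 186 and 119.6 against 347, 519.8 and 379 in MG (-1.20, SE 0.32, adjusted p = 0.0301). The other 23 did not pass, and the median of the list was -0.00. Slc16a1, the lactate transporter MCT1, had 373, 433 and 275 in BMDM against 844, 689 and 609 in MG (-0.68, adjusted p = 0.0828). Of 21 lysine acyltransferases and deacylases, Hdac11 fell (-0.97, adjusted p = 0.0453) with 238, 171 and 119.6 in BMDM against 430.0, 402 and 410.1 in MG, and the median was -0.04. Of 27 respiratory chain and citrate cycle genes 0 passed, with differences from -0.41 to 0.34. Of 16 genes of PERK signalling and the unfolded protein response 0 passed, with differences from -0.63 at Asns, asparagine synthetase, to 0.92 at Slc7a11, the cystine transporter. Of 18 hypoxia genes Ppp1r3c, a glycogen-targeting phosphatase subunit, fell (-1.36, adjusted p = 0.0288), and Ndrg1 had 631, 787 and 369.6 in BMDM against 361, 212 and 255 in MG (1.39, adjusted p = 0.103).

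Lists of immune effector genes had medians above that of all promoters, with few calls. Of 27 immunosuppressive mediators 2 rose and 0 fell, with a median of 0.74. Trem1, an activating receptor of myeloid cells, had 244, 249.9 and 111 normalized counts in BMDM against 53.2, 60.7 and 36.0 in MG (2.25, SE 0.40, adjusted p = 0.0292). Il1rn, the interleukin 1 receptor antagonist, had 383, 339 and 210.1 in BMDM against 122, 111 and 59.3 in MG (2.00, SE 0.38, adjusted p = 0.0341). Neither group overlapped the other at these genes. Il10 had 524, 561 and 221 in BMDM against 171, 159 and 126 in MG at a peak 864 bp downstream of its start and did not pass (1.72, adjusted p = 0.0582). Under centring on the median promoter 11 of the 27 rose, as did 1415 of all 19378 tested promoters.

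Of 18 antigen presentation genes Cd80, a costimulatory ligand, rose with 313, 201 and 138 in BMDM against 69.8, 56.3 and 56.4 in MG (2.06, SE 0.36, adjusted p = 0.0289), and the median was 0.39. The class II genes H2-Aa, H2-Ab1 and H2-Eb1 had differences of 0.62, 0.61 and 0.54 and overlapping groups. Of 21 chemokine and receptor genes 1 rose, Ccr7, with a median of 0.76, but 4 rose with library totals, 3 with cyclic loess and 6 with centring on the median promoter. Over all 19378 tested promoters these settings called 717, 881 and 1415 higher. Cxcr4 had 843, 657 and 429 in BMDM against 405, 161 and 251 in MG (1.60, adjusted p = 0.0832). Of 18 interferon response genes and 18 lipid handling genes 0 passed, with medians of 0.29 and 0.21. Of 32 myeloid transcription factors Bhlhe41 fell, with 305, 221 and 194 in BMDM against 1024, 519 and 647 in MG (-1.25, SE 0.35, adjusted p = 0.034). Runx3 had 647, 614 and 411 in BMDM against 344, 191 and 226 in MG and did not pass (1.46, adjusted p = 0.0698). Centring called 1415 of all 19378 tested promoters higher in BMDM. Among the lists these were 9 of 14 monocyte and macrophage and 7 of 9 T, NK and B cell genes. They also included 3 of 32 myeloid transcription factor, 2 of 18 interferon response and 1 of 16 unfolded protein response genes. The counts of these last 3 lists do not stand out from the share over all promoters.

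Housekeeping promoters were strong and close to the median promoter. Of 33 ribosomal protein, 32 replication and mitosis, 23 proteasome, 21 splicing and 20 RNA polymerase II genes, 0 passed in either direction. The list medians were 0.06, 0.05, 0.06, 0.00 and 0.01, and the splicing genes had differences from -0.26 to 0.20. The widest of them was a peak annotated to Polr2f, 954 bp downstream of its start, at chr15:79151868-79153505, with 15.9, 29.8 and 58.0 normalized counts in BMDM against 27.8, 564 and 256 in MG (-2.05, adjusted p = 0.144). The promoter of Sox10 at chr15:79164076-79166222, in the same region, had 37.7, 55.7 and 83.3 in BMDM against 65.1, 1102 and 518 in MG, the same order of MG libraries. Of 28 Hox genes, the positional regulators of the body axis, 4 fell and 0 rose: Hoxa5, Hoxa10, Hoxa13 and Hoxd8. Hoxa5 had 111, 68.0 and 96.0 in BMDM against 374, 404 and 310.0 in MG (-1.68, SE 0.31, adjusted p = 0.026), without overlap. The median over the Hox genes was 0.03, and under centring 1 rose and 1 fell.

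**Figure D5:**
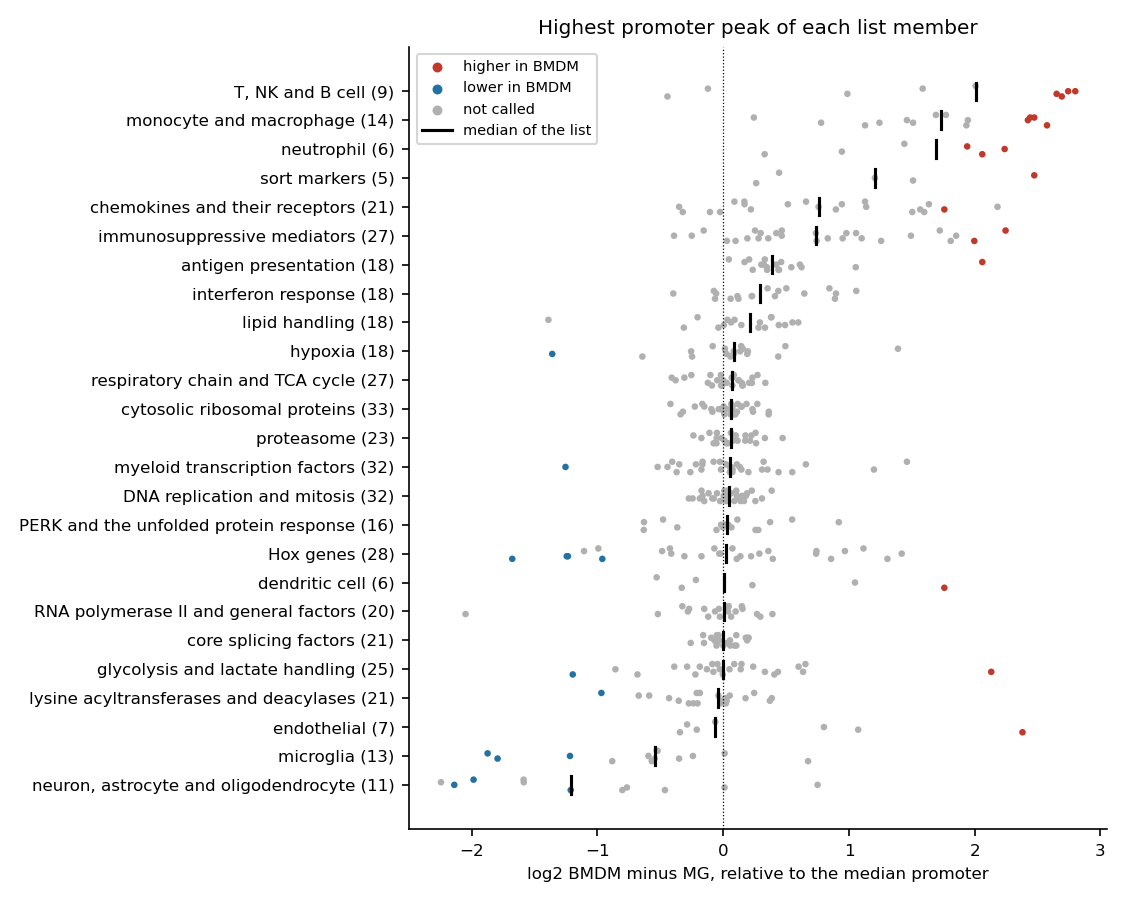
Log2 difference BMDM minus MG, relative to the median promoter, of the strongest promoter peak of each member of 25 lists, with the number tested in brackets, a bar at each median, and calls in red (higher in BMDM) and blue (lower). Lymphoid, monocyte and neutrophil lists have medians of 2.01, 1.73 and 1.69, neural and microglial lists of -1.21 and -0.54, and housekeeping lists lie at 0.00 to 0.06.

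The peak lists of single libraries held different shares of these promoters. Promoters were called in the list of BMDM 1, 2 and 3 for 63.5%, 75.2% and 49.6% of the 19716 and in that of MG 1, 2 and 3 for 77.6%, 88.2% and 79.4%. All 6 lists held 9673 promoters (49.1%), which had a median mean count of 568 and of which 81.3% of those with a window were CpG-rich. No list held 848 of them. All 3 MG lists and no BMDM list held 885, of which 144 fell, and all 3 BMDM lists and no MG list held 3, which all rose. These 3 were Lilr4b, Tbc1d10c and Kdm4d, a histone demethylase with 147, 238 and 197 normalized counts in BMDM against 35.7, 73.2 and 36.0 in MG. Among all tested promoters 3.25% fell and 2.12% rose. Both sets were picked by lists made from the same reads, which all but fixed the direction of any call. Their calls are therefore no separate evidence. The lists of BMDM 1 and BMDM 3, the 2 shallowest libraries, were the shortest, with 33982 and 17741 peaks. That of BMDM 2 held 52631 peaks, and those of MG held 50217 to 70739. The sizes of these sets therefore say nothing of which group has more open promoters.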

How the data were processed

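ATAC-seq libraries of BMDM and MG (3 each) were compared. The submitters' processing notes name MACS2 (2.1.1.20160309), Bowtie2 (2.4.1), cutadapt (1.8.1), DESeq2 (1.36.0), ChIPseeker (1.32.1) and build mm10. With settings, duplicate removal and any shift of reads not given in the sources used here, no effect of these steps was examined. The authors deposited 1 peak table, whose library columns hold log2 values that are variance-stabilized, to judge by their values. Per the file headers it also holds mean normalized signal, log2 fold changes, a Wald statistic (a score), p-values and adjusted p-values for peaks and for a gene-level comparison. The deposited list of each library gives a fold enrichment, a −log10 p, a −log10 q and a score per peak, which are the authors' values; only positions and summits were used. Another 8 columns of per-sample values were not used.

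The inverse transformation gave normalized counts, and at least 99.9989% of values were whole reads within 0.02 read after division by the value of 1 read. Reads in annotated peaks numbered 4910448 to 23601865 per library, and 3 reads, the limit for a count of 0, were 1.64 normalized counts in MG 2 and 5.95 in BMDM 1. Such intervals and limits hold for counting error only, since reads amplified by PCR are not independent. Because the columns are normalized, tests used limma 3.58.1 (under R 4.3.3) with a variance trend on log2(normalized count + 1), which understates changes of low peaks, for peaks with a mean of at least 10. Benjamini-Hochberg adjusted p under 0.05 over all tested peaks was the threshold, and the fit was tested on simulated data. Shares were compared with exact permutation tests over libraries. Gene symbols, positions and classes are those of the deposited table. RefSeq windows (GRCm38.p6) were matched by gene and overlap.

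Named are the 12 largest differences in each direction among called promoters above the median level without overlap between groups, 1 peak per gene, without Rik, Gm and microRNA names. At most 6 members per gene list were named by p, and some others because they did not follow their list. The 5 promoters with the highest mean and genes with calls in both directions were named too. The promoters, gene lists and motifs were chosen with earlier results of these data known. Some list members are not reported here. Alternatives covered scaling, pseudocount, filter, variance model, replicate block and each library left out.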

Additional observations from a re-analysis of the deposited data

How the results depend on the processing

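Counts of promoters called higher and lower in BMDM were 411 and 630. They stayed within 1.5 times of this with a pseudocount of 5, no filter, a mean of at least 30, the deposited stabilized values and robust moderation (341 to 443 higher, 558 to 737 lower). They were 717 and 686 with library totals, 881 and 1086 with cyclic loess, 1415 and 369 with centring on the median promoter, and 0 and 0 with voom on recovered reads (lowest adjusted p 0.0505). Leaving out 1 library gave 0 to 931 higher and 0 to 2507 lower; without MG 1 the shared variance took nearly all the weight, with 211 prior degrees of freedom against 6.08 for all libraries. With the replicate number as a block the counts were 819 and 1727, all 411 and 630 among them, but the numbers were not shown to pair libraries: deviations of same-numbered libraries correlated at 0.485, -0.144 and 0.404, and BMDM 2 and BMDM 3 each correlated better with an MG library of another number. The promoter share of reads differed by -6.14 to -2.53 percentage points and the promoter level against other peaks by -0.65 to -0.31 without each library in turn, and neither passed under any alternative. The 24 largest changes kept their direction under every alternative, which their choice by size and lack of overlap all but fixed. Of these 24, 0 passed with voom or without BMDM 1, BMDM 2 or MG 3, with limma adjusted p up to 0.203. With library totals 23 passed, and without BMDM 3 20 passed. Calls by CpG class and per list were recounted under alternatives chosen after seeing the data. Depth limits weak promoters most: the median promoter held 76 reads in BMDM 3 and 460 in MG 2.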
